A study of Drosophila melanogaster with 4 samples.

Results

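Isolated Hairy peaks are listed peaks of the transcription factor Hairy with no other listed peak nearby on their chromosome arm of Drosophila melanogaster. They were chosen by position only, as peaks on 2L, 2R, 3L, 3R, 4 or X whose nearest other peak lay more than 20 kb away, measured between peak midpoints. The rule picked 460 of the 8099 peaks on these sequences (5.68%, 95% Clopper-Pearson interval 5.19 to 6.21%), in a list of 8958 peaks in all. The other 7639 peaks of the same sequences are the comparison set. Chromatin was immunoprecipitated from embryos with KW3-h-D1, a polyclonal rabbit antibody against part of the Hairy protein, and sequenced (ChIP-seq) in 2 Hairy ChIP libraries and 2 input DNA libraries, which all carry the same strain, genotype and stage labels. The strain, Y cn bw sp, bore y[1] and oc[R3.2] on the X, then bw[1], sp[1] and cn[1] with CG33964[R4.2], Gr22d[1] and Gr22b[1] on the next chromosome, and Rh6[1], GstD5[1], MstProx[1], lab[R4.2] and LysC[1] on the third. The labels give the sex as unknown and the stage as embryos of 0 to 8 h, while the collection protocol speaks of a laying of 8 to 16 h, so the age is uncertain. Whole embryos hold many cell types, and binding in few cells cannot be told apart from weak binding in many.

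Hairy is a basic helix-loop-helix repressor encoded by a pair-rule gene, 1 of the genes that divide the embryo into segments. It binds DNA related to the E box and recruits the corepressor Groucho, and in the early embryo it is known as a long-range repressor, able to silence enhancers that lie at a distance from its own site. Later in development it restrains proneural genes and so limits where sensory organs form. Genes of early patterning are often surrounded by several enhancers each, and peaks of patterning factors often come in groups. A peak that stands alone is the opposite arrangement, and the list allows its strength, width and surroundings to be described.

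The values are the authors' own: the bounds of each peak and its score, on Release 5 of the genome. The scale of the score is not named in the list, so scores are set side by side only within it. No value per library was analysed, so read depth is unknown and no peak has a replicate error. Peaks are not replicates of a condition, so the comparisons below are descriptions without a p-value. Medians carry an exact order-statistic interval and shares a Clopper-Pearson interval, each at 95% and each covering counting error only, with neighbouring peaks treated as independent. Peaks are named by coordinates and not by gene, since no gene annotation or sequence of Release 5 was used here.

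The free stretch around isolated peaks varied widely, and for 211 of the 460 the nearest peak lay no more than 30 kb away. The distance to the nearest peak chose these peaks and is given as a description: its median was 32.1 kb, its quartiles were 24.3 and 48.6 kb, and it ran from 20.1 to 288.4 kb. Other peaks had a median of 1.74 kb to their nearest neighbour. Of the 460 isolated peaks, 451 had a neighbour on both sides, and 9 were the first or last peak of a sequence and so were measured on 1 side only. Among the 451 the farther neighbour lay at a median of 63.5 kb, and the farther distance was a median of 1.71 times the nearer one. In 105 of them the sequence was free of listed peaks for more than 50 kb on both sides, and in 12 for more than 100 kb.

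**Figure D1:**
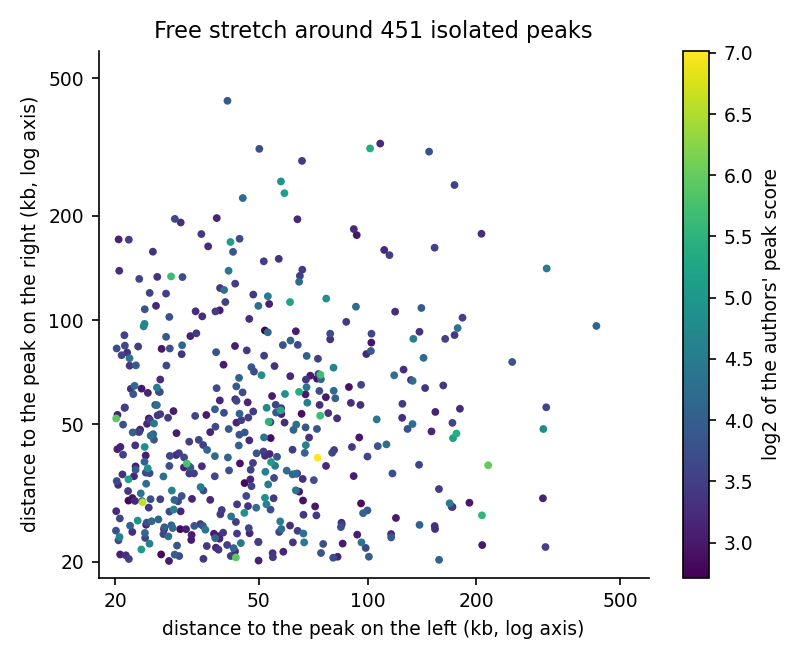
Each point is 1 of the 451 isolated peaks with a neighbour on both sides, placed by its distance in kb to the next peak on the left and on the right (log axes, between midpoints) and coloured by the log2 of its score. The points crowd toward the lower left corner at 20 kb, and the 9 of them that score 50 or more are spread over nearest distances of 20.1 to 69.5 kb.

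The most remote peaks included the last peaks of several sequences. The longest distance belonged to the peak at X:22230035-22230307, the last of the X, 288.4 kb from its neighbour. It shared the lowest score of all isolated peaks, 6.55, with a peak at 3R:19236894-19237167. The last peak of chromosome 4, at 4:1347348-1347637, was 265.8 kb from its neighbour and scored 12.11, and the last of 2L, at 2L:22961255-22961671, was 225.2 kb away and scored 20.04. Away from the ends, a peak at X:14369150-14369560 had 206.7 kb free on its left and 177.6 kb on its right, with a score of 9.56. A peak at 2L:14761103-14761363 had 174.0 and 245.6 kb free on its left and right and scored 11.40. These 5 are the most remote of the list, and 3 of them are end peaks.

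The bound of 20 kb passes between peaks of nearly the same distance. Just inside were 3R:5935200-5935576, at 20.101 kb with a score of 13.22, and 4:445271-445641, at 20.125 kb with a score of 60.45. Just outside were 2L:18319959-18320387, at 19.994 kb with a score of 12.37, and 2L:15039928-15040255, at 19.992 kb with a score of 9.44.

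Isolated peaks were not confined to empty regions. An isolated peak was present in 120 of the 123 blocks of 1 Mb that held any peak, with a median of 3 and at most 9 to a block. Blocks with 1 to 30 peaks had a mean of 4.27 isolated peaks, blocks with 31 to 60 had 4.75, blocks with 61 to 90 had 3.19 and blocks with 91 or more had 2.32. The share of peaks that were isolated ran from 26.9% in the sparsest of these classes to 2.11% in the densest, an order that the rule itself largely sets. The highest count of 9 was reached in 4 blocks, 2L from 18 to 19 Mb, 2R from 12 to 13 Mb, 3R from 22 to 23 Mb and the first Mb of 2R. These blocks held 55, 46, 27 and 25 peaks in all, in that order.

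Many isolated peaks stood next to one another. When all arm peaks within 20 kb of the next are joined into chains, the list falls into 1556 chains, and isolated peaks, the chains of 1 peak, made up 29.6% of these. Of the 460 isolated peaks, 269 (58.5%) had another isolated peak as their next peak on at least 1 side, and the nearest peak was itself isolated for 156 (33.9%). These shares follow in part from the rule, since 29.6% of all chains were single peaks and an isolated peak can have a chain on each side. Whether isolated peaks adjoin one another more often than this share gives was not tested. Isolated peaks with no isolated peak next to them numbered 191, the ends of sequences included, and there were 75 consecutive pairs, 19 runs of 3, 6 runs of 4, 4 runs of 5 and 3 runs of 6.

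The runs of 6 differed in the strength of their peaks. The longest in span, at 2R:358490-676421, covered 317.9 kb near the centromere, and its 6 peaks scored from 12.70 to 50.61 with a median of 26.3. The runs at 3L:9941412-10240522 and 3L:8039843-8282726 covered 299.1 and 242.9 kb, with median scores of 10.8 and 11.3 and highest scores of 14.06 and 18.86. The 2R run therefore held stronger peaks than the 3L runs, on 6 peaks each.

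Most sequence between Hairy peaks was in long free stretches, and isolated peaks bordered many of these. Of 8093 distances between neighbouring peaks, 1550 (19.2%) exceeded 20 kb, and these added up to 86.3 Mb, 72.2% of the length from the first to the last peak of each sequence. An isolated peak stood at both ends of 162 of the 1550 stretches and at 1 end of 587, while 801 lay between groups of peaks. Isolated peaks thus bordered 749 of them, and the longest stretch beside an isolated peak measured 430.1 kb.

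Isolated peaks had somewhat lower scores than the other peaks at the median, with much overlap. Their scores ran from 6.55 to 129.50, with quartiles of 9.59 and 16.57 and a median of 11.87 (interval 11.40 to 12.46). Other peaks ran from 5.93 to 676.30, with quartiles of 10.15 and 17.2 and a median of 12.79 (12.70 to 12.98). The difference of medians, isolated minus other, was -0.92, and the intervals of the medians did not overlap. The quartile ranges lay mostly on top of each other, and 42.5% of all arm peaks scored below the isolated median.

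The groups were separated by their intervals among weak peaks and not among strong ones. Of the 460 isolated peaks, 145 (31.5%, interval 27.3 to 36.0%) scored at or below 10.15, the lower quartile of all arm peaks, against 1933 of the 7639 other peaks (25.3%, 24.3 to 26.3%) and a background of 25.7% over all arm peaks. At or above the upper quartile of 17.16 were 104 isolated peaks (22.6%, 18.9 to 26.7%) and 1922 other peaks (25.2%, 24.2 to 26.1%), with a background of 25%. Scores of 30 or more were found in 28 isolated peaks (6.09%, 4.08 to 8.68%) and in 394 other peaks (5.16%, 4.67 to 5.68%), with a background of 5.21%. In the top 1% of arm peaks, 53.71 and above, were 6 isolated peaks (1.30%, 0.480 to 2.82%) and 75 other peaks (0.982%, 0.773 to 1.23%), with a background of 1%. In all of these classes but the lowest, the intervals for isolated and other peaks overlapped, so a lower share of strong peaks among the isolated ones was not detectable with these counts. By class, 131 isolated peaks scored under 10, 255 from 10 to under 20, 64 from 20 to under 50 and 10 at 50 or more.

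**Figure D2:**
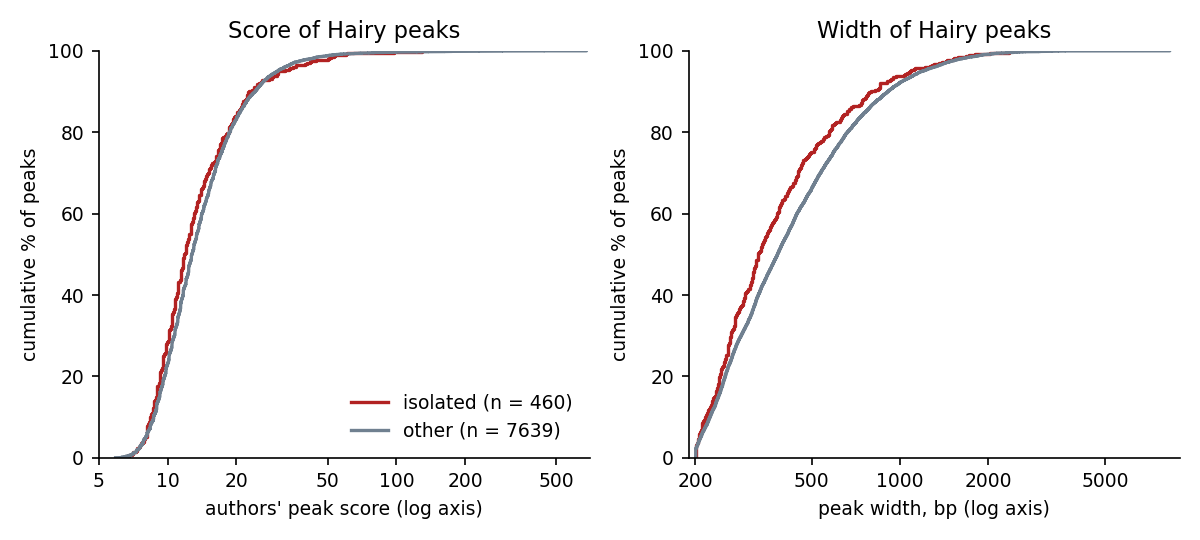
Cumulative percentage of peaks (vertical axis) at or below each score (left) and each width in bp (right), on log axes, for the 460 isolated peaks (red) and the 7639 other peaks of the same sequences (grey). The isolated curve lies to the left around the medians of 11.87 against 12.79 for score and 329 against 382 bp for width, and the score curves cross in the upper tail.

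Isolated peaks were also narrower at the median over all sequences together. Their median width was 329 bp (interval 315 to 351 bp), the quartiles were 255 and 496 bp, and widths went from 201 up to 2373 bp. Other peaks had a median of 382 bp (376 to 388 bp), with quartiles at 268 and 593 bp and widths of 201 to 8320 bp. The difference of medians was -53 bp, and the intervals did not overlap. Widths of 1 kb or more were found in 28 isolated peaks (6.09%, 4.08 to 8.68%) and in 601 other peaks (7.87%, 7.27 to 8.49%), with a background of 7.77%, so the share of broad peaks was not separated at these counts. The smallest width in the list, 201 bp, occurred in 13 isolated peaks (2.83%) and 176 other peaks (2.30%), with a background of 2.33%. Isolated peaks covered 205191 bp, 5.09% of the bases covered by peaks on the arms.

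Score and width went together among isolated peaks as among the others. Across peaks, Spearman's rho was 0.58 and Pearson's r on log2 values 0.59 for the 460 isolated peaks, and rho was 0.66 and r 0.67 for the 7639 other peaks. All of these peaks share the same libraries, and the values are descriptions. Because of this link the score difference was also read at matched width, in the 4 quartile classes of width of all arm peaks. Its average was then 0.0068, with values by class from the narrowest to the widest of 0.13, 0, -0.78 and 0.79, so the average difference in score at matched width was close to 0 and its sign varied. The width difference at matched score was kept, at an average of -40.4 bp. It came from the classes of higher score. In the lowest class isolated peaks were 265 bp wide at the median against 263 bp for other peaks, in the next 297 against 322 bp, in the third 334 against 430.5 bp and in the highest 626 against 692 bp.

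The place of a peak on its arm was taken into account by setting each isolated peak against the other peaks of its own 1 Mb block, a comparison chosen after the values were seen. Of the 458 isolated peaks with another peak in their block, 272 (59.4%, interval 54.7 to 63.9%) scored below the median of those peaks and 184 above it. In width 266 (58.1%, 53.4 to 62.6%) were below and 191 above. The average over blocks of the difference of medians, isolated minus other, weighted by the isolated peaks of each block, was 0.13 for score and -13.1 bp for width. This average uses medians of at most 9 isolated peaks to a block. It is therefore not the same measure as the difference of medians over all peaks, -0.92 and -53 bp. For score the count of peaks and the block average therefore point in opposite directions, so a lower score among peaks of the same region depends on how it is measured. Against its single nearest neighbour, the isolated peak scored higher in 208 of 460 cases (45.2%, 40.6 to 49.9%), with 3 ties, and these neighbours had a median score of 12.79 and a median width of 370 bp. For 156 of the 460 the nearest neighbour was itself isolated, and such a neighbour can enter more than once here. Isolated peaks that are nearest to each other enter in both directions, as a higher and as a lower score unless tied. Such pairs pull the share toward an even split, and the interval wrongly treats their cases as independent. The share therefore cannot decide how isolated peaks score against neighbours that are not isolated.

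Score and width did not change in 1 direction with distance. The weakest and narrowest class was the other extreme, the 596 peaks whose neighbour lay within 0.5 kb, with a median score of 10.8 (interval 10.5 to 11.3) and a median width of 270.5 bp. Distances run between midpoints, so the measure itself bounds the width of peaks this close, and the widest of them was 649 bp. Score was linked to width (rho 0.66 among other peaks), so the low score of this class was not separated from that bound. The highest medians, 13.9 and 440.5 bp, were those of the 1854 peaks with a neighbour at 1 to 2 kb. From there the median score was 13.1 at 2 to 5 kb, 12.6 at 5 to 10 kb and 12.5 at 10 to 20 kb, and the median widths were 392, 377 and 362 bp. Beyond 20 kb the median score was 11.8 (11.1 to 12.7) for 211 peaks at up to 30 kb, 12.1 (11.1 to 13.0) for 137 at up to 50 kb and 11.7 (10.96 to 13.4) for 112 farther away. Their median widths were 331, 323 and 356 bp. These 3 classes overlapped in their intervals, and among the isolated peaks distance had a Spearman rho of 0.080 with score and of 0.052 with width. The share at or above the upper quartile of arm scores was 19.9% (42 peaks, 14.7 to 25.9%) at up to 30 kb, 21.2% (29 peaks, 14.7 to 29.0%) at up to 50 kb and 29.5% (33 peaks, 21.2 to 38.8%) farther away. The medians of score were thus nearly level beyond 20 kb, while the share of strong peaks was highest in the most remote class, with intervals that overlapped.

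**Figure D3:**
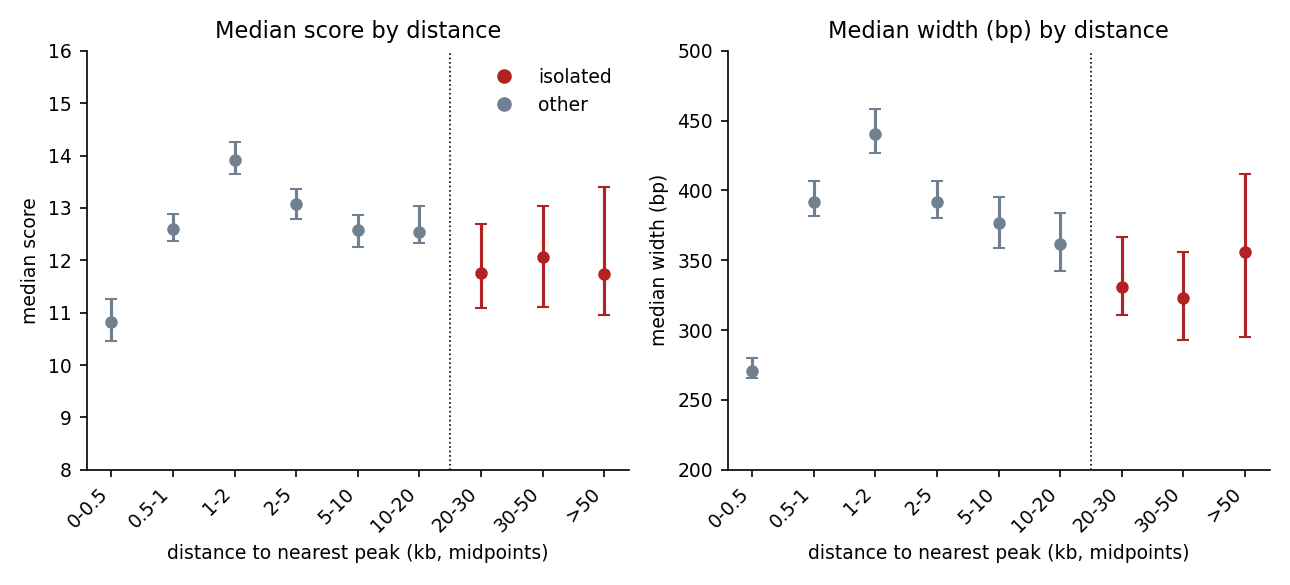
Median score (left) and median width in bp (right) of arm peaks by distance to the nearest peak in kb between midpoints, from the closest to the most remote class, with 95% order-statistic intervals; the dotted line is at 20 kb, isolated classes are red and other classes grey. Both medians are lowest within 0.5 kb (10.8 and 270.5 bp), highest at 1 to 2 kb (13.9 and 440.5 bp) and, beyond 20 kb, 11.7 to 12.1 for score and 323 to 356 bp for width. The vertical axes do not start at 0, and the midpoint distance itself bounds the width of peaks within 0.5 kb.

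The peaks most like the isolated ones in spacing had medians between those of the isolated peaks and those of all other peaks. The 637 peaks with their nearest neighbour at 10 to 20 kb had a median score of 12.54 (interval 12.33 to 13.03) and a median width of 362 bp (342 to 384 bp). Isolated peaks had 11.87 (11.40 to 12.46) and 329 bp (315 to 351 bp), so the intervals overlapped narrowly for both measures. The differences of medians, isolated minus these peaks, were -0.67 and -33 bp, against -0.92 and -53 bp for all other peaks. The 496 peaks in chains of 2 had medians of 12.6 (11.97 to 13.10) and 356 bp (339 to 382 bp), again with overlapping intervals. Chains of 3 to 5, 6 to 10, 11 to 20 and over 20 peaks had median scores of 12.6, 12.7, 13.1 and 12.95 and median widths of 377, 373, 386 and 401 bp. The isolated peaks were the lowest of these classes in both medians.

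By arm, isolated peaks ranged from 4.68% of the peaks on 2R to 6.21% on 2L among the large arms. They made up 90 of the 1450 peaks on 2L (6.21%, interval 5.02 to 7.57%), 82 of 1751 on 2R (4.68%, 3.74 to 5.78%), 93 of 1519 on 3L (6.12%, 4.97 to 7.45%), 106 of 1971 on 3R (5.38%, 4.42 to 6.47%) and 80 of 1379 on the X (5.80%, 4.63 to 7.17%). All 5 intervals overlapped. On chromosome 4, a small and largely heterochromatic chromosome, 9 of 29 peaks were isolated (31.03%, 15.3 to 50.8%), an interval above those of the large arms. The median distance of any peak to its nearest neighbour was 9.56 kb on chromosome 4 and 1.45 to 2.40 kb on the large arms, so the rule is met more easily there.

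The median width of isolated peaks was the lower one on all 6 sequences and the median score on 5 of them, but on most sequences the intervals overlapped. Median widths of isolated and other peaks were 356 and 384 bp on 2L, 347.5 and 389 bp on 2R, 321 and 387 bp on 3L, 327 and 372 bp on 3R, 371 and 386 bp on chromosome 4 and 322.5 and 378 bp on the X. The width intervals were apart on 3L only, at 276 to 343 bp for isolated peaks and 373 to 403 bp for other peaks. Median scores were 12.7 and 13.0 on 2R, 11.7 and 12.9 on 3L, 11.3 and 13.0 on 3R, 17.3 and 19.8 on chromosome 4 and 10.8 and 12.0 on the X. The score intervals were apart on 3L (10.72 to 12.37 for isolated and 12.64 to 13.23 for other peaks) and on 3R (10.36 to 12.25 and 12.70 to 13.37), met at 11.72 on the X and overlapped on 2R and chromosome 4. On 2L isolated peaks had the higher median, 13.6 (interval 12.70 to 15.46) against 12.8 (12.50 to 13.19), with overlapping intervals. With isolation set at 10 or 15 kb, or with the weaker peaks of the list left out, the 2L difference of 0.77 turned to -0.43, -0.20 and -1.06. Without 2L the difference over the remaining sequences was -1.08.

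**Figure D4:**
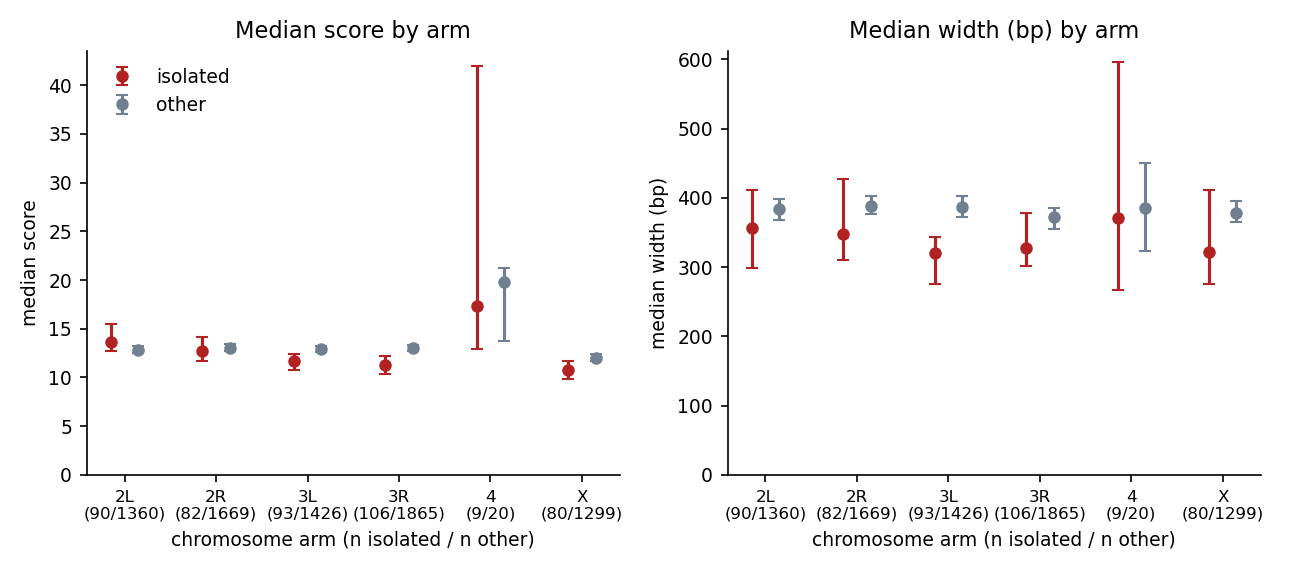
Median score (left) and median width in bp (right) of isolated peaks (red) and other peaks (grey) on each chromosome arm, with 95% order-statistic intervals and the number of peaks of each kind under the arm's name. Isolated peaks lie lower in width on all 6 sequences and lower in score on all but 2L, but the intervals are apart only on 3L for width and on 3L and 3R for score, and they are wide on chromosome 4, where 9 peaks are isolated.

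The 10 strongest isolated peaks came from all 6 sequences. The strongest, at X:14804153-14805052, scored 129.50, ranked 19 among all arm peaks, was 900 bp wide and had 72.8 kb free on its left and 40.0 kb on its right. The next, at 3R:7094641-7095127, scored 97.40, ranked 30, was 487 bp wide and had 23.8 and 29.8 kb free on its left and right. These stood well above the rest, since the third, at 2R:977372-978321, scored 62.85. It was 950 bp wide, with 215.8 kb free on its left and 38.1 kb on its right. A second peak of the X, at X:8385542-8386320, scored 61.05, and the chromosome 4 peak just inside the bound, at 4:445271-445641, scored 60.45. Others lay near the centromere of 2R, at 2R:17961-18638 (score 54.02, the first peak of the arm) and 2R:505735-506639 (50.61). The strongest of 3L was at 3L:18012740-18013535 (53.44), the strongest of 2L at 2L:10545330-10546413 (51.65), and a second peak of 3R was at 3R:9118868-9119415 (50.26). Among those of the 10 with neighbours on both sides, the 2L peak was the most remote, with 74.0 kb free on its left and 69.5 kb on its right.

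The widest isolated peaks were not the strongest ones. The widest was at 3R:2689394-2691766, 2373 bp wide with a score of 30.45. It was followed by 2R:3850246-3852597, 2352 bp wide with a score of 17.55, and X:5452905-5454956, 2052 bp wide with a score of 36.28. The 28 isolated peaks of 1 kb or more scored from 16.54 to 51.65 with a median of 22.5. Of these, 27 were at or above the upper quartile of arm scores, with a background of 25% over all arm peaks. The same share among other peaks of 1 kb or more was not computed. Score was linked to width among other peaks too (rho 0.66), so this is not shown to be particular to isolated peaks. Among the 10 strongest isolated peaks, only the 2L peak was this wide. The 13 of the smallest width scored from 7.25 to 13.03, with a median of 9.26. Score was therefore linked to width at both ends of the width range, while the highest scores belonged to peaks between 371 and 1084 bp wide.

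On chromosome 4 the 9 isolated peaks scored from 12.11 to 60.45 with a median of 17.3. The strong ones were at 4:445271-445641 (60.45), 4:152335-152930 (41.92) and 4:497302-497560 (28.66). The others lay between 12.11 and 17.94. Their lowest score was above the median of the 460 isolated peaks, and the other 20 peaks of chromosome 4 also had a high median, 19.8.

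Isolated peaks were more frequent near centromeres on some arms, in a comparison chosen after the values were seen. Within 2 Mb of the outermost peak on the centromere side of the 5 large arms, 45 of 483 peaks were isolated (9.32%, interval 6.88 to 12.3%). Within 2 Mb of the opposite end 31 of 830 were (3.73%, 2.55 to 5.26%), and between them 375 of 6757 (5.55%, 5.02 to 6.12%). The arms differed: the centromere side gave 21.2% on arm 2R, 13.8% on arm 3L, 8.57% on arm 2L, 1.68% on arm 3R and 14.7% on the X. The arms with the higher shares held fewer peaks there, 66 on 2R, 65 on 3L and 68 on the X, against 105 on 2L and 179 on 3R. The rule is met more easily where peaks are few, so these shares were not separated from local peak density. Without 2R the centromere side gave 31 of 417 peaks (7.43%, 5.11 to 10.4%). This interval overlaps that of the stretch between the ends, where 2R is still included with 62 of 1465 peaks (4.23%).

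The isolated peaks near the centromere of 2R had a higher median score than the other peaks there, with a wide interval. This stretch was picked after the values were seen. The 14 of them scored from 8.69 to 62.85 with a median of 18.1 (interval 11.79 to 50.61), against a median of 12.96 for the 52 other peaks there, and the interval includes that value. Of the 14, 7 were at or above the upper quartile of arm scores, with a background of 25% over all arm peaks. The share among the 52 other peaks was not computed. Of the 14, 3 were among the 10 strongest isolated peaks. On the centromere sides of the other 4 large arms together, isolated peaks had a median score of 11.7 and other peaks 12.9. Taken singly, isolated peaks had the higher median on 2L (12.7 against 11.83, 9 isolated) and 3R (15.64 against 13.72, 3 isolated). They had the lower one on 3L (11.72 against 12.6, 9 isolated) and the X (10.31 against 11.87, 10 isolated).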

How the data were processed

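One list of Hairy peaks for the whole series was analysed. It uses FlyBase release 5 coordinates and names MACS as the source of each line, per the file headers and lines. BWA, MACS2, CASAVA (1.7.0.2 and 1.7.0.3) and the build BDGP5 are named in the submitters' processing notes. Their roles, the pooling of replicates, the control, the threshold and the treatment of duplicate reads are details not given in the sources used here; they decide which weak peaks are listed and so which peaks count as isolated. The score of each peak is the value the authors deposited, on a scale the list does not name. The start and end are other deposited values, 1-based and inclusive.

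Midpoints are the floor of the mean of start and end. Peaks on scaffolds other than the 6 sequences were left out of the comparisons. Score and width played no part in choosing the isolated peaks. The set, the measures and the lists were chosen with earlier results of these data known. Peaks named are the 10 strongest and 5 most remote isolated peaks, the strongest of each arm, the 3 widest, the weakest, the 2 nearest to 20 kb on each side, the longest run and the blocks with most isolated peaks; tied runs, tied blocks and strong chromosome 4 peaks were added after their values were seen. No p-value was computed. Medians have exact order-statistic intervals and shares Clopper-Pearson intervals, at 95%. The gene table at hand is of Release 6, so no gene or sequence was assigned. The script for the rule was first run on simulated peaks of known spacing. Alternatives changed the distance, its measure, the peaks and the comparison set. Values were computed in Python 3.11.15 with scipy 1.17.1, pandas 2.3.3 and numpy 2.4.6, and plotted with matplotlib 3.10.9.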

Additional observations from a re-analysis of the deposited data

Results flagged for a closer look

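The same distance rule also finds peaks on sequences that the comparisons above leave out. On the heterochromatic scaffolds (2LHet, 2RHet, 3LHet, 3RHet and XHet), 27 of 81 peaks were more than 20 kb from their nearest neighbour, with scores from 8.13 to 68.36 and a median of 13.7. They are given here because they lie outside the main comparison and number more than 3, and the control libraries have no peaks of their own in the list to set beside them. The same rule gave 23 of 40 peaks on U and 231 of 728 on Uextra, where scaffolds are joined in an arbitrary order, so distances there do not measure isolation.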

How the results depend on the processing

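No paired analysis was possible because the list carries no value per library, and no replicate could be left out for the same reason. The lower median width of isolated peaks kept its direction under every alternative run. The difference ranged from -73 bp with peaks within 500 bp joined to -13.1 bp as an average within 1 Mb blocks. Joining itself widens merged regions, so the -73 bp was not separated from that. A split by place on the 5 large arms was not among these alternatives, and there the direction varied. Isolated peaks had median widths of 417 against 385.5 bp within 2 Mb on the centromere side (45 isolated). They had 402 against 383 bp at the far side (31 isolated) and 321 against 382 bp between (375 isolated). The lower median score kept its direction except within quartile classes of width (0.0068) and as an average within 1 Mb blocks (0.13, added after seeing the data). The block averages rest on few isolated peaks per block, and 59.4% of isolated peaks scored below the median of the other peaks of their block; the cause of this reversal was not tested. On 2L the score difference reversed to -0.43 at 10 kb, -0.20 at 15 kb and -1.06 with only the 4125 peaks scoring 12.7 or more. The number of isolated peaks was 1097 (13.5%) at 10 kb and 249 (3.07%) at 30 kb, and the share was 8.49% at 15 kb. Joining peaks within 500 bp gave a share of 7.86%, a median width of 367 bp and 12.5% of isolated regions at 1 kb or more. With only these 4125 peaks, 14.4% were isolated, with a median score of 16.5, a median width of 503.5 bp and 14.4% at 1 kb or more. Leaving out chromosome 4, the end peaks or any 1 large arm kept the median score difference between -1.08 and -0.64. Depth is unknown, so a free stretch is one without a listed peak.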
